A study of Homo sapiens with 8 samples.

Results

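The direct contrast of 2 small interfering RNAs against the same gene, PIR, in the same cells was examined on the 2 PC3 arrays among the 8 arrays of the series. PC3 is a human prostate cancer cell line established from a bone metastasis. PC3 cells received si-PIR-2 or si-PIR-3 by lipid transfection with Lipofectamine RNAiMAX, and by the study's methods siRNAs were used at 10 nM. On each 2-colour Agilent Human GE 60K array, RNA of the transfected cells was labelled with Cy5, RNA of mock PC3 cells that had not been transfected was labelled with Cy3, and no dyes were swapped. There was 1 array per siRNA, so no difference below has a replicate check or a test, and the labels do not say whether both mock channels hold the same RNA extract. Because the mock cells had not been transfected, effects shared by all transfections are part of each ratio. The difference used throughout is the log2 ratio (Cy5 over Cy3) of the si-PIR-2 array minus that of the si-PIR-3 array, in which a dye effect that is equal on both arrays cancels. The array design carries 43317 gene names. Of these, 22503 were kept because a probe of theirs stood well above background on each array, in 1 channel or more, and for 19079 of them the representative probe did so in each of the 4 channels of the pair.

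An siRNA is a short RNA duplex whose guide strand directs Argonaute proteins to cut a fully complementary mRNA. The guide strand can also act as a miRNA does: pairing of its seed, a few bases near its 5′ end, with sites in other mRNAs lowers those mRNAs, mostly through their 3′ untranslated regions. Since 2 siRNAs against 1 gene have different seeds, effects of the target are expected to be shared between them, whereas effects of a seed are not, which is one reason to use more than 1 siRNA. The sequences of si-PIR-2 and si-PIR-3 are not given in the sources used here, so a match to either seed was not tested. PIR encodes pirin, an iron-binding nuclear protein of the cupin superfamily.

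Probe sequences that separated the arrays are shown first, because each array had a short word of its own. Over the 24794 probes detected (well above background) in all 4 channels, the mean log2 ratio was computed for the probes that hold each word of 6 bases, on the strand of the probe, for the 3366 words found in at least 100 probes. On the si-PIR-2 array the lowest mean belonged to GGGTTA, at -0.45 over 145 probes (0.585% of all), while the same probes had a mean of -0.06 on the si-PIR-3 array. On the si-PIR-3 array the lowest mean belonged to CCCTAA, at -0.28 over 261 probes (1.05% of all), while these probes had a mean of 0.04 on the si-PIR-2 array. The mean of all probes was -0.03 and -0.02. The words were picked from all words by these values, which are a description without a test. The 2 words also gave the most negative mean difference, -0.39, and the most positive, 0.32. Their mean mock differences were -0.02 and 0.01, and only 1 probe held both words.

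Probes of genes low on 1 array show each word in its place. Each line gives 30 bases of the 60-base probe, 5′ to 3′ on the strand of the array's annotation (hg19), with the word and any flanking base of the best longer word in capitals; the first 4 hold the word of the si-PIR-2 array and the last 4 that of the si-PIR-3 array. Genes were taken in order of their ratio on that array among probes that hold the word with a flanking base and lie in 1 stretch of the genome, without NUDT21, which was low on both.
MGST3: catcttggtTGGGTTAAaagtggcttgggc
KIFAP3: tgtgtgggtTGGGTTAAttttggatctttg
SGSH: gtggcaatgcccgtcctctggctTGGGTTA
SPAG9: tgtcccgagaGGGTTAAaagctaactgtaa
IFNAR1: caaataataaataaatcaTCCCTAAtgccc
TMA7: gtccttgttctaCCCTAAActttgtatcac
USP14: ctcatcttagagCCCTAAAgggaaatgctt
C1orf53: tttcatctctgtTCCCTAActgtgcttgta

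The 4 stretches of the first group lie at chr1:165624688-165624717 on the plus strand (MGST3, a microsomal glutathione transferase) and, on the minus strand, at chr1:169890744-169890773 (KIFAP3, a kinesin-associated protein), chr17:78183337-78183366 (SGSH, the lysosomal enzyme N-sulfoglucosamine sulfohydrolase) and chr17:49043126-49043155 (SPAG9, a scaffold protein of JNK signalling). The log2 ratio on the si-PIR-2 and si-PIR-3 arrays was -2.02 and -0.08 for MGST3, -1.98 and -0.02 for KIFAP3, -1.94 and -0.22 for SGSH, and -1.80 and 0.41 for SPAG9. The stretches of the second group all lie on the plus strand, at chr21:34732094-34732123 (IFNAR1, a subunit of the type I interferon receptor), chr3:48485558-48485587 (TMA7, translation machinery associated 7), chr18:213708-213737 (USP14, a deubiquitinase of the proteasome) and chr1:197876357-197876386 (C1orf53). Their ratios on the si-PIR-2 and si-PIR-3 arrays were 0.85 and -2.65 for IFNAR1, 0.37 and -2.35 for TMA7, -0.03 and -1.98 for USP14, and -0.14 and -1.86 for C1orf53. Their low ratio on the array of the word was what placed them here. The probe of NUDT21, a subunit of the cleavage factor that selects polyadenylation sites, held TGGGTTAA and had ratios of -2.11 and -2.13. The sources used here hold no exon or UTR annotation on hg19, so the part of the transcript that each stretch lies in is not given.

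Some longer words were lower and others less low. Of the 8 words of 7 bases that extend the first word, 2 were below its mean on the si-PIR-2 array and the others lay between -0.39 and -0.22. GGGTTAA was lowest on the si-PIR-2 array, with a mean of -0.72 over 47 probes against -0.02 on the si-PIR-3 array, and TGGGTTA had a mean of -0.63 over 46 probes against -0.14. The 19 probes with TGGGTTAA had a mean of -1.004 against -0.17, and 52.6% of them were below -1 on the si-PIR-2 array, compared with 17.2% of the probes with GGGTTA and 3.20% of all probes. For the word of the si-PIR-3 array, 4 of the 8 extensions were below its mean on the si-PIR-3 array and the others lay between -0.24 and -0.05. CCCTAAA had a mean of -0.43 on that array over 90 probes against 0.04 on the si-PIR-2 array, and TCCCTAA a mean of -0.41 over 90 probes against 0.02. The 31 probes with TCCCTAAA had a mean of -0.51 against -0.05, and 22.6% of them were below -1 on the si-PIR-3 array, compared with 11.1% of the probes with CCCTAA and 2.23% of all probes. The reverse complements, TAACCC and TTAGGG, had means of -0.07 and 0.00 over 176 probes and of -0.08 and -0.09 over 188 probes on the si-PIR-2 and si-PIR-3 arrays.

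**Figure D1:**
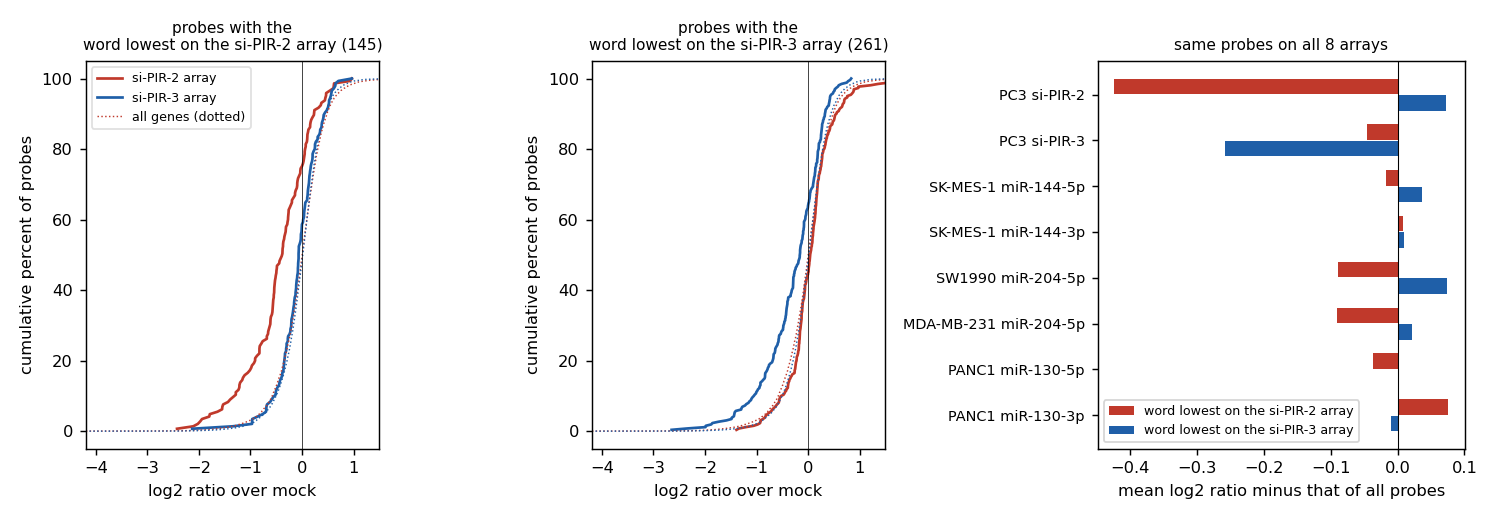
The left and middle panels plot the cumulative percent of probes against the log2 ratio over mock, for the 145 probes with GGGTTA (left) and the 261 probes with CCCTAA (middle), with solid lines for the 2 PC3 arrays and dotted lines for all genes. In the left panel the si-PIR-2 curve, and in the middle panel the si-PIR-3 curve, lies to the left of the others. The right panel gives the mean log2 ratio of the same probes less that of all probes on all 8 arrays: the bars of -0.42 on the si-PIR-2 array and -0.26 on the si-PIR-3 array are the longest of their word.

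On the 6 other arrays, which held other cell lines transfected with miRNAs, the probes with GGGTTA differed from all probes by -0.09 to 0.08 in mean and those with CCCTAA by -0.01 to 0.07. By rank from the lowest, GGGTTA was 29 of 3231 and 26 of 3255 on the 2 arrays of miR-204-5p and 899 or higher on the other 4. These arrays also show what the same ranking gives where the transfected sequence is known. The word that pairs with bases 2 to 7 of the miRNA ranked lowest or near lowest on 4 of the 6 arrays: 1 of 3255 for miR-130-5p in PANC1 cells (AAAGAG, mean -0.19 over 624 probes), 2 of 3275 for miR-144-5p in SK-MES-1 cells (GATATC, mean -0.20), and 2 of 3231 and 3 of 3255 for miR-204-5p in SW1990 and MDA-MB-231 cells (AAGGGA, means -0.16 and -0.18). For miR-130-3p in PANC1 cells it ranked 70 of 3240 (TGCACT, mean -0.13). For miR-144-3p in SK-MES-1 cells it ranked 3233 of 3267 (TACTGT, mean 0.08), near the highest. A word with at least 5 consecutive G ranked lowest on 5 of the 6 arrays. The miR-204-5p sequence in RefSeq, with bases 2 to 8 in capitals, is given for comparison with its word.
hsa-miR-204-5p: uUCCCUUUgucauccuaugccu
The words of the PC3 arrays would pair with UAACCC and UUAGGG at bases 2 to 7. Whether either siRNA carries such bases was not tested, because the siRNA sequences are not given in the sources used here. Among the 2370 mature human miRNAs in the RefSeq table, 0 carry the former there and 1 carries the latter.
hsa-miR-2909: gUUAGGGCcaacaucucuugg

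Other probes of the same genes and their promoters were also described. Of the genes with a GGGTTA probe, 58 had further probes without the word, 80 in all, whose mean log2 ratio was -0.15 on the si-PIR-2 array and 0.01 on the si-PIR-3 array; the mean over all probes of genes with several probes was -0.02 on both. Of the genes with a CCCTAA probe, 98 had 150 further probes without it, and these had a mean of -0.13 on the si-PIR-3 array and 0.04 on the si-PIR-2 array. Further probes of the same genes thus deviated in the direction of the word probes by a smaller amount, since the word probes of these genes had means of -0.46 and -0.34. The words were picked by the ratios of the same genes on the same arrays, so these further probes are no separate support. The promoter windows of RefSeq (300 bases around the start site, GRCh38.p14) were searched on either strand. The probes were read on their own strand only, so values for promoters and probes are not directly comparable. Where in the transcript the difference lay was not tested. In 11404 promoters of measured genes, GGGTTA or its reverse complement occurred in 6.42% and CCCTAA or its reverse complement in 8.52%. The mean difference of these genes was 0.05 and -0.01, against -0.01 over all of them. Neither word nor its reverse complement occurred in the probe of PIR.

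Only a minority of the differences came with a word. Of the genes lower with si-PIR-2 alone, as defined below, 18 of 368 (4.89%) had a GGGTTA probe, against 0.760% of all genes and 1 of 242 genes (0.413%) lower with si-PIR-3 alone. Of the genes lower with si-PIR-3 alone, 20 of 242 (8.26%) had a CCCTAA probe, against 1.36% of all genes and 2 of 368 (0.543%) lower with si-PIR-2 alone. Each word was picked by the same ratios that define these classes, so a larger share in its own class was built in and is no separate support. Among genes higher with 1 siRNA alone, GGGTTA occurred in 0 of 181 and 0 of 83, and CCCTAA in 3 of 181 (1.66%) and 0 of 83; at these class sizes and the shares of all genes, such counts are near the background. The probes cover 60 bases of each transcript, and sites elsewhere in a transcript were not examined. Next lowest on the si-PIR-2 array was GGGGGG, which was low on both arrays (mean -0.23 and -0.18 over 141 probes). It was followed by GGTTAA, which overlaps GGGTTA (mean -0.22 and -0.01 over 232 probes). By mean difference, the next lowest word was CGCCCC, lower with si-PIR-2 and higher with si-PIR-3 (mean -0.12 and 0.15 over 140 probes). The next highest by mean difference was GCCCTA, which overlaps CCCTAA (mean 0.03 and -0.12 over 173 probes).

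The targeted gene was measured first as a check of the labels. PIR has 1 probe, at chrX:15403058-15403117. The mean spot intensity of the mock channel was 1725 beside si-PIR-2 and 1812 beside si-PIR-3, and that of the transfected channel 92.1 and 170.3. The log2 ratio was -5.46 with si-PIR-2 and -4.27 with si-PIR-3, and on the 6 other arrays it ranged from -1.59 to 0.05. PIR was therefore far below mock with both siRNAs and lower with si-PIR-2. The difference was -1.18, a 2.27-fold lower remaining level with si-PIR-2, and the mock channels differed by -0.09. The mock SD of probes of like brightness, averaged over the 4 channels, was 0.0889. The transfected channels of PIR were dimmer than its mock channels, and the mock SD was larger among dimmer probes, up to 0.347. After background correction with an offset of 50 and loess, the difference was -0.78, which no longer passes 1 on the log2 scale.

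The mock channels served as the noise reference. The 2 mock channels correlated with r = 0.997 across 24794 probes and the 2 transfected channels with r = 0.9797, while the 2 log2 ratios correlated with r = 0.246; probes are not independent replicates. The difference between mock channels had an SD of 0.201 across these probes and that between transfected channels an SD of 0.542. In 8 bins of brightness, the mock SD ranged from 0.347 among the dimmest probes to 0.0720 and 0.0724 in the 2 brightest bins, whereas the transfected SD lay between 0.474 and 0.565. The transfected spread was therefore 1.62 times the mock spread in the dimmest bin and 6.54 times in the brightest. The mock cells were not transfected, so the mock spread cannot cover variation between 2 separate transfections, which is part of the transfected spread. For 285 probes spotted several times, the SD of the difference within a probe was 0.0876. For comparison, 2 arrays of 1 line in the same series had an SD of the difference of 0.307 (SK-MES-1, the 2 arms of miR-144) and 0.706 (PANC1, the 2 arms of miR-130), against 0.552 here.

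**Figure D2:**
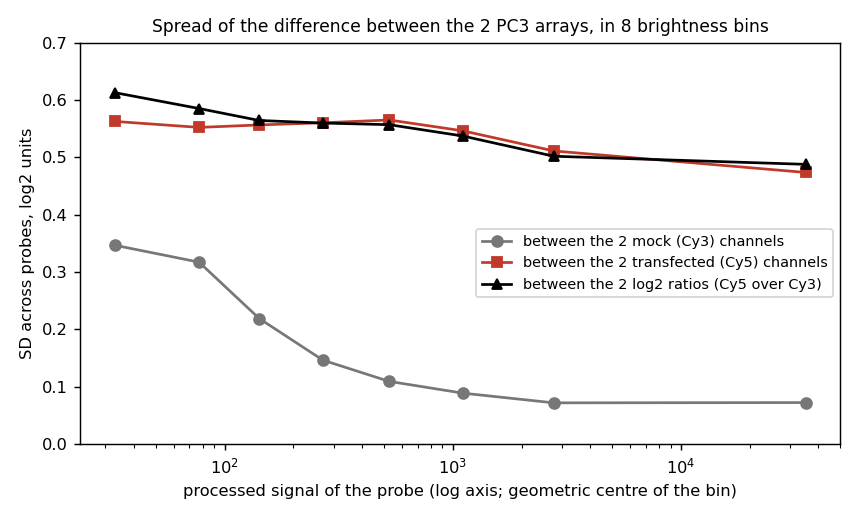
SD across probes of the difference between the 2 PC3 arrays (log2 units) against the probe's processed signal (log axis), in 8 bins of brightness, for the mock channels (circles), the transfected channels (squares) and the log2 ratios (triangles). The mock SD decreases from 0.347 to 0.0724 with brightness, and the transfected SD stays between 0.474 and 0.565.

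Past a 2-fold difference (1 on the log2 scale), 1154 genes (5.13%) had a higher ratio with si-PIR-2 than with si-PIR-3 and 1108 genes (4.92%) a lower one. By the mock channels alone, 307 genes (1.36%) were past 1 and 464 (2.06%) past -1, mostly dim ones: among the 19079 genes detected in all 4 channels, 0.294% had a mock difference past 1 in either direction and 7.05% a ratio difference past 1. Of the genes past 1 and past -1, the mock difference was within 0.5 for 682 and 700, and past 1 in either direction for 296 and 225. Runs of GGGG, which can disturb hybridisation, occurred in 11.4% and 11.7% of their probes and in 12.7% of all. With background correction (offset 50) and loess, 224 genes were past 1 and 235 past -1. All of these were among the genes counted above. With the same background correction and each array centred on its median, the split became 446 above and 186 below.

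Where a gene had further probes, these mostly pointed the same way. For 188 genes below -1, 205 of 242 other probes (84.7%) had a negative difference and 172 (71.1%) lay below -0.5. For 184 genes above 1, 187 of 238 other probes (78.6%) had a positive difference and 144 (60.5%) lay above 0.5. For 3825 genes whose representative probe was within 0.5 of 0, 15.5% of the other probes lay above 0.5 and 12.8% below -0.5.

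**Figure D3:**
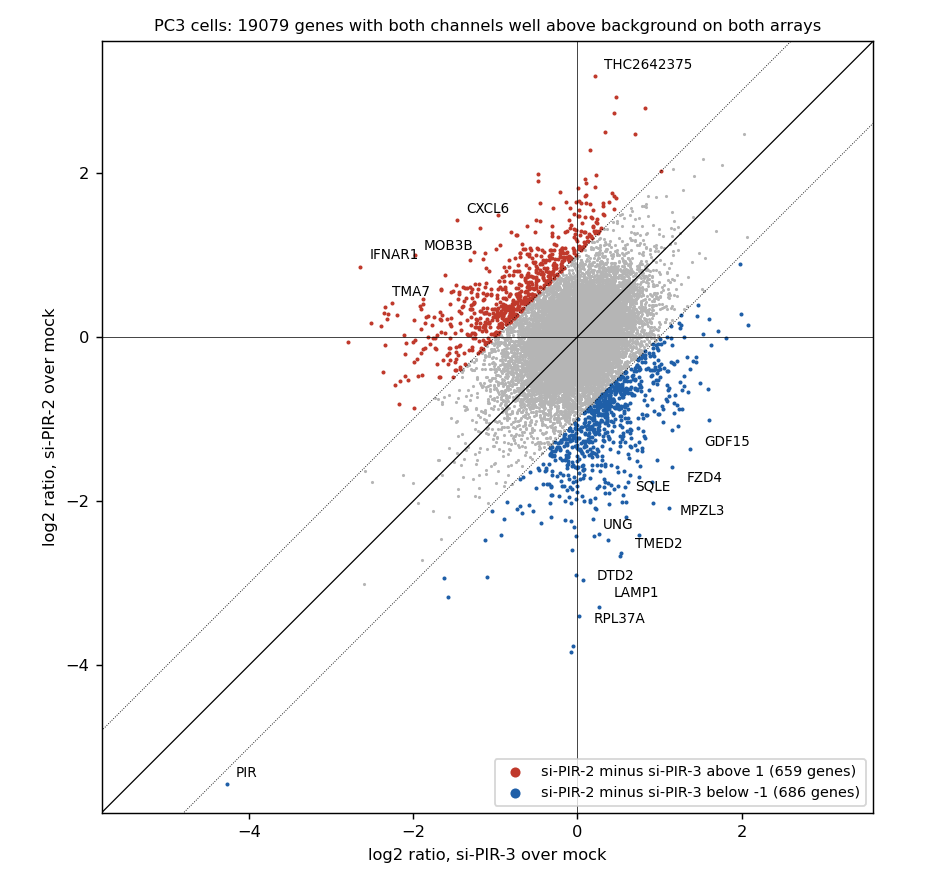
Log2 ratio over mock with si-PIR-2 (vertical) against si-PIR-3 (horizontal) for the 19079 genes detected in all 4 channels. Dotted lines mark a difference of 1; 659 genes lie above them (red) and 686 below (blue). PIR lies at the lower left, near -5.46 and -4.27, apart from the other genes, and the blue and red points spread mainly along the axes, where the ratio on 1 array is near 0.

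The genes differing most were separated by a level below mock on 1 array. Of the 15 genes with the most negative differences (detected in all 4 channels, mock difference within 0.5), all 15 were below -1 with si-PIR-2 and 8 were within 0.5 of mock with si-PIR-3. All 15 were lower with si-PIR-2 than on any other array that measured them, which was 5 arrays for FAM110C and 6 for the rest. Of the 15 genes with the most positive differences, 13 were below -1 with si-PIR-3 and 9 were within 0.5 of mock with si-PIR-2. Of the 14 that were measured on the other arrays, 13 were lower with si-PIR-3 than on any of them. These 30 genes were selected by the size of the difference, so that their differences, from 5.52-fold to 13.5-fold, are given as a description.

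On the side lower with si-PIR-2, the largest difference of a named gene was that of LAMP1. LAMP1, a major glycoprotein of the lysosomal membrane (chr13:113977667-113977726), had a mock intensity of 6587 and 5804 on the si-PIR-2 and si-PIR-3 arrays and a transfected intensity of 1428 and 12847. Its log2 ratio was -3.30 against 0.27, a difference of -3.56 (11.8-fold), with a mock difference of 0.16. TMED2, a p24 cargo receptor of early secretory vesicles (chr12:124082559-124082618), had transfected intensities of 993.3 and 6551 over mock intensities of 3016 and 2572, and ratios of -2.67 and 0.52. LAMP1 and TMED2 were thus both well below mock with si-PIR-2 and near or above it with si-PIR-3. RAP2A and RAP2C, Ras-like small GTPases, were both low: RAP2A had ratios of -2.64 and 0.53 (difference -3.17), and RAP2C ratios of -2.19 and 0.59 (difference -2.78), with -2.75 at its second probe. FNBP1L, an F-BAR protein of membrane curvature and actin, had ratios of -2.40 and 0.26.

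RPL37A, a protein of the large ribosomal subunit, had the brightest of these probes, with mock intensities of 27418 and 20240 and transfected intensities of 6384 and 43890. Its ratio was -3.40 with si-PIR-2 and 0.02 with si-PIR-3, with -3.60 as the difference at a second probe, but its mock channels also differed, by 0.43, and ribosomal protein genes have near-identical pseudogenes. The 23 cytosolic ribosomal protein genes of a separate list had differences between -0.08 and 0.27. DTD2, a tRNA deacylase, had ratios of -2.96 and 0.06. UNG, the uracil-DNA glycosylase of base excision repair, had transfected intensities of 1175 and 6059 and ratios of -2.43 and 0.21, and was the 1 gene of the 15 with a GGGTTA probe. It was also below mock with miR-204-5p, at -1.48 and -1.72. The most negative difference, -3.75, belonged to ENST00000494116, a transcript without a gene symbol (chr11:111760007-111760066), which had transfected intensities of 1103 and 11689 and ratios of -3.84 and -0.08.

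GDF15, FZD4, MPZL3 and SQLE were above mock with si-PIR-3 and below it with si-PIR-2. GDF15, a stress-induced cytokine of the TGF-beta superfamily, had transfected intensities of 3876 and 20221 over mock intensities of 4550 and 4077, and ratios of -1.37 and 1.37. FZD4, a Wnt receptor, had ratios of -1.59 and 1.15, and MPZL3, a membrane protein of the immunoglobulin superfamily, -2.09 and 1.11. SQLE, the squalene epoxidase of cholesterol synthesis, had ratios of -2.02 and 0.92, although it was not below mock on any of the other 6 arrays (0.02 to 1.14). ZC3H6 (-2.91 and -0.02) and FAM110C (-2.48 and 0.37) were dim, with transfected intensities of 23.6 and 24.5 with si-PIR-2, and after background correction and loess their differences were -0.58 and -0.62.

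On the side lower with si-PIR-3, IFNAR1 had the largest difference. Its mock intensity was 293.2 and 300.2, and its transfected intensity 970.0 with si-PIR-2 and 88.9 with si-PIR-3. The ratio was 0.85 against -2.65, a difference of 3.50 (11.3-fold). On the other 6 arrays its ratio was between -0.79 and 0.34. TMA7 had transfected intensities of 8951 and 1179 over mock intensities of 3223 and 3472, and a difference of 2.71, with 2.54 at its second probe. RAB10, a small GTPase of vesicle transport, had ratios of 0.28 and -2.31, and GNG10, a gamma subunit of heterotrimeric G proteins, ratios of 0.22 and -2.32, with a difference of 2.34 at its second probe against 2.54 at the first. RAB10 was also below mock with miR-204-5p, at -1.31 and -1.61.

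The other members of this side were dimmer or noncoding, except for CERCAM, with mock intensities of 449.3 and 445.0. CERCAM had ratios of 0.41 and -2.26, but its second probe had a difference of 0.75. MOB3B, a MOB family kinase activator, had ratios of 0.99 and -1.98, with 2.22 at the second probe, and PPAPDC2 (now PLPP6, a phospholipid phosphatase) 0.29 and -2.36. CEBPZOS, a small protein encoded opposite CEBPZ, had ratios of 0.27 and -2.20. The long noncoding RNA SP2-AS1 had ratios of -0.07 and -2.79, and FUT8-AS1 1.32 and -1.19. KRT37, a hair keratin, and ANKRD34A had transfected intensities of 24.8 and 24.4 with si-PIR-3, close to background, and their differences of 2.69 and 2.53 became 0.58 and 0.49 after background correction and loess. Both remaining genes were high with si-PIR-2: THC2642375, a transcript without a gene name, had ratios of 3.17 and 0.22, and LINC01186, a long noncoding RNA, 1.98 and -0.49. CXCL6, a chemokine that attracts neutrophils, was at opposite sides, with transfected intensities of 682.6 and 86.3 over mock intensities of 149.7 and 140.8 and ratios of 1.42 and -1.47. On the 3 other arrays that measured CXCL6, its ratio was between -0.23 and 2.71.

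**Figure D4:**
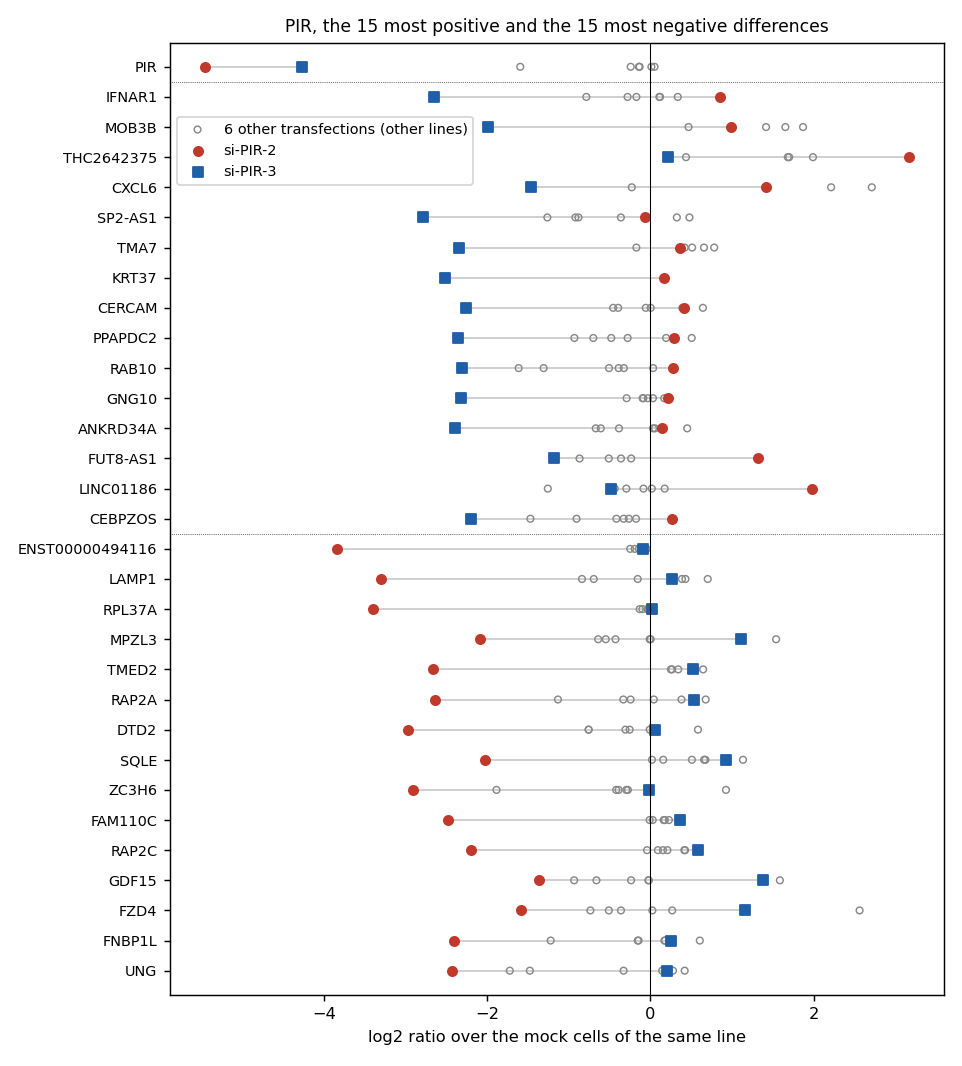
Log2 ratio over the mock cells of the same line for PIR (top), the 15 genes with the most positive and the 15 with the most negative difference, with si-PIR-2 (red circles), si-PIR-3 (blue squares) and the 6 other transfections (open circles). PIR is low with both siRNAs; in the middle block the si-PIR-3 square is the lowest point of 13 of the 14 genes measured on the other arrays, and in the lower block the si-PIR-2 circle is the lowest point of all 15.

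Genes that differed from mock with 1 siRNA alone were also counted by a rule: past 1 from mock on 1 array, within 0.5 of mock on the other, and a mock difference within 0.5. By this rule 368 genes (1.64%) were lower with si-PIR-2 alone and 242 (1.08%) lower with si-PIR-3 alone, whereas 181 (0.804%) were higher with si-PIR-2 alone and 83 (0.369%) higher with si-PIR-3 alone. The median differences of these classes, which the rule fixes in sign, were -1.32, 1.31, 1.14 and -0.99. With background correction and loess the 4 classes held 137, 87, 45 and 14 genes. With the same correction and each array centred on the median of the measured genes, they held 45, 25, 230 and 58. Whether more genes were lower or higher with 1 siRNA alone thus depended on the scaling.

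Genes higher with 1 siRNA alone were taken here, after their values were seen, from the 10 protein-coding genes with the largest difference in each class. With si-PIR-2 alone, CCBE1 (ratios 1.90 and -0.48), GLIPR1 (2.28 and 0.15) and the interleukin receptors IL7R (1.76 and -0.22) and IL18R1 (1.26 and -0.31) were high. IL18R1 had differences of 1.27 to 1.44 at its 2 further probes. CYR61 (now CCN1), a matricellular protein and YAP target, had transfected intensities of 23860 and 5207 over mock intensities of 2890 and 2728. With si-PIR-3 alone, VAV3, a guanine nucleotide exchange factor (0.14 and 2.07), MMP1, a collagenase (-0.39 and 1.37), and several cholesterol genes were high. Several of these genes also rose on the miRNA arrays that measured them. Ratios there ran from 0.01 to 3.16 for CCBE1, -1.29 to 0.69 for GLIPR1, -0.97 to 1.61 for IL7R and 0.83 to 0.93 for IL18R1. They ran from -0.02 to 1.96 for CYR61, 0.96 to 1.87 for VAV3 and -0.26 to 1.11 for MMP1.

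Of 24 gene lists, chosen with earlier results of these data known, the median difference over all genes being -0.01, cholesterol synthesis had the lowest median and NF-kB targets and cytokines the highest. Both medians kept their sign under the 6 alternative settings, and that of cholesterol synthesis was -0.37 with median centring. The medians of the other 22 lists lay between -0.42 and 0.36, and 8 of these turned sign with median centring. Of all genes, 5.13% were past 1 and 4.92% past -1, which is the background for the counts of every list. Of 20 cholesterol synthesis genes measured, 6 were past -1 (30%), 1 past 1 (5.0%) and 2 above 0, with a median difference of -0.63. The median ratio of the list was -0.12 with si-PIR-2 and 0.52 with si-PIR-3. Besides SQLE, the members past -1 included HMGCS1, the HMG-CoA synthase (ratios -0.09 and 1.62), and INSIG1, the sterol-regulated brake on SREBP (difference -1.71). Their transfected intensities were 183.0 and 521.2, and 566.7 and 1446. HMGCS1 and INSIG1 were near mock with si-PIR-2 and above it with si-PIR-3, whereas SQLE was far below mock with si-PIR-2. On the 6 other arrays HMGCS1 had ratios from 0.04 to 1.80 and INSIG1 from 0.14 to 1.56. A level above mock was therefore not particular to si-PIR-3 for these 2 genes. FDFT1, the squalene synthase and the 1 member past 1, had ratios of -0.39 and -1.43. The rule for 1 siRNA alone placed 4 of the 20 genes among those higher with si-PIR-3 alone, where 0.369% of all genes fell.

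Of 20 NF-kB target and cytokine genes, 5 were past 1 (25%), 0 past -1 and 17 above 0, with a median difference of 0.51. The median ratio was 0.53 with si-PIR-2 and 0.10 with si-PIR-3. BIRC3, an inhibitor of apoptosis and feedback gene of NF-kB, had transfected intensities of 966.8 and 216.1 over mock intensities of 92.5 and 90.1, and ratios of 2.78 and 0.82. IL1B had ratios of 0.58 and -1.21, IL6 of 1.27 and -0.52, and TNFAIP3, the A20 inhibitor of NF-kB, of 1.62 and 0.16. The inflammatory cytokines IL1B and IL6 were thus above mock with si-PIR-2 and below it with si-PIR-3, and BIRC3 was above mock with both. CXCL1, the last of the 5, had ratios of 0.12 and -1.06, and 0.83 as the difference at a second probe. IKBKE, a kinase upstream of interferon and NF-kB signalling, was the 1 gene past 1 of 11 in the list on cytosolic RNA sensing (1.47 and 0.09).

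Interferon-stimulated genes had median ratios below 0 with both siRNAs and differed gene by gene. Of 36 measured, 8 were past -1 (22.2%) and 3 past 1 (8.33%, near the share of all genes), the median difference was -0.13 (0.02 with median centring), and the median ratio was -0.52 with si-PIR-2 and -0.48 with si-PIR-3. BST2 (tetherin) and RSAD2 (viperin) were dim, with transfected intensities of 21.9 and 24.6 with si-PIR-2 and differences of -1.97 and -1.82. OASL, an antiviral protein related to oligoadenylate synthetases, had mock intensities of 320.5 and 341.1 and transfected intensities of 79.1 and 190.1, with ratios of -3.17 and -1.57. IFI44L had ratios of -1.18 and 0.34. PARP9, the largest of the 3 past 1, had ratios of -0.29 and -1.63, but a second probe of it had a difference of -1.35, of opposite sign. IFNAR1, the receptor subunit described above, was not a member of this list.

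The glycolysis, hypoxia and NRF2 lists had medians below 0. Of 19 glycolysis and hypoxia genes, 4 were past -1 (21.1%) and 1 past 1 (5.26%), with a median of -0.42, which was -0.21 with median centring. NDRG1, a hypoxia-regulated gene, had transfected intensities of 3844 and 15563 over mock intensities of 5000.3 and 5051, and ratios of -1.51 and 0.72. ANGPTL4, a secreted inhibitor of lipoprotein lipase, had ratios of -1.39 and 0.79, and ANKRD37 of -1.74 and 0.03, while ADM, the vasodilator adrenomedullin, was past 1 at 1.71 and 0.44. Of 24 NRF2 target genes, 3 were past -1 (12.5%) and 0 past 1, with a median of -0.24, which was -0.03 with median centring, and 4 above 0. SLC7A11, the cystine transporter, had transfected intensities of 247.3 and 1038 and ratios of -1.92 and 0.56. AKR1B10, an aldo-keto reductase, had ratios of -0.59 and 1.09, with a difference of -1.93 at a second probe, and TXNRD1, thioredoxin reductase, -1.04 and 0.10. Of 23 genes of the unfolded protein and ATF4 response, 2 were past -1 and 1 past 1. HSPA5, the chaperone BiP, had ratios of -0.97 and 0.33, and HYOU1, a chaperone of the same compartment, was past 1 with a difference of 1.40. CHORDC1, an HSP90 cochaperone, was the 1 gene past -1 of 20 in the HSF1 and chaperone list (-1.79 and -0.37), a share of 5.0% that is that of all genes.

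**Figure D5:**
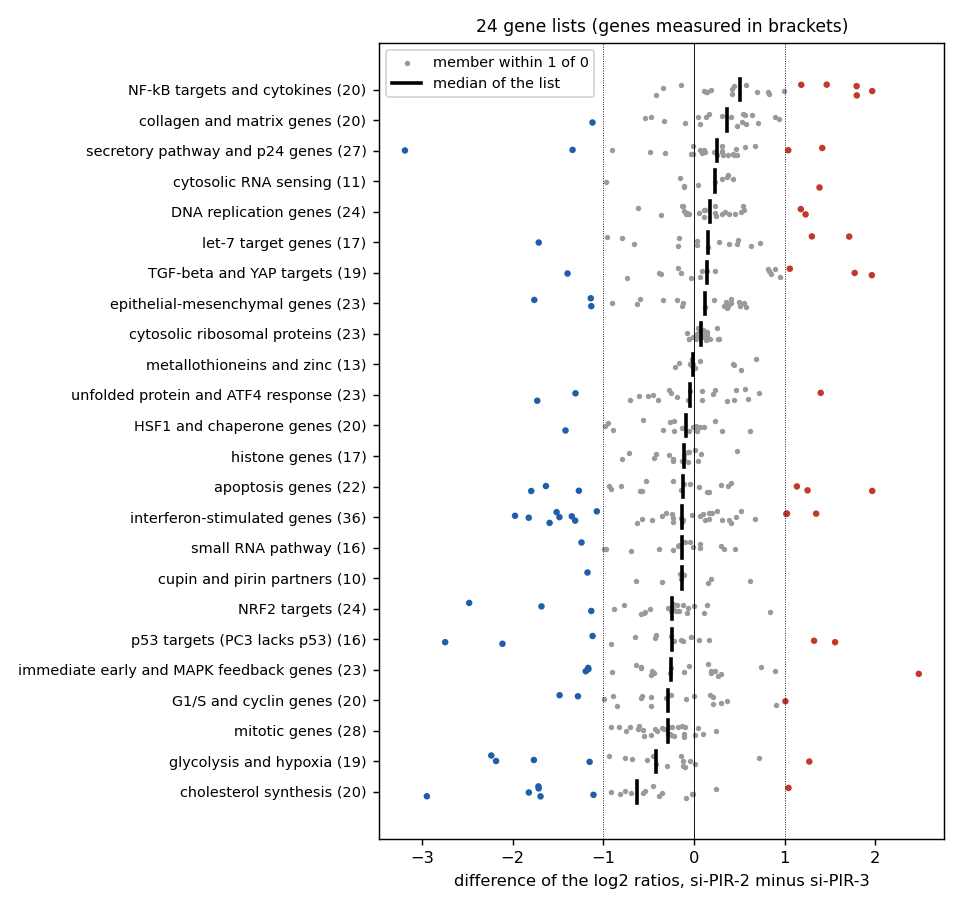
Difference of the log2 ratios (si-PIR-2 minus si-PIR-3) of each measured member of 24 gene lists, with the median as a black bar; members past 1 are red and members past -1 blue. Medians run from -0.63 for cholesterol synthesis to 0.51 for NF-kB targets and cytokines, while the 23 ribosomal protein genes lie between -0.08 and 0.27.

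Growth and survival lists were mixed. Of 16 p53 target genes, in a line that lacks functional p53, 3 were past -1 (18.8%) and 2 past 1 (12.5%), against 4.92% and 5.13% of all genes. Besides GDF15, TP53INP1 was past -1 (-0.93 and 1.18), and the death receptor FAS past 1 (1.75 and 0.43), though 2 further probes of FAS had differences of -0.86 and 1.14. CDKN1A, which had a difference of 1.56, was dim, and its mock channels differed by -0.77. Of 28 mitotic genes 0 were past 1 or -1, with a median of -0.28 (-0.05 with median centring) and a median ratio of -0.16 with si-PIR-2 and 0.24 with si-PIR-3. Of 24 DNA replication genes, 2 were past 1 (8.33%, near the 5.13% of all genes): POLA1 (0.29 and -0.94) and POLE2 (0.40 and -0.78), subunits of the replicative polymerases. Of 20 G1/S genes, CDKN2B (-0.53 and 0.95) and E2F3 (-0.73 and 0.55) were past -1. CDK6, the kinase of G1 entry, was above mock with both siRNAs, at 2.03 and 1.02. Of 22 apoptosis genes, 3 were past each threshold, among them BCL2 (-1.46 and 0.17) and XIAP (-0.92 and 0.35) past -1, and BIRC3, BAK1 (0.34 and -0.91) and BIRC2 (0.97 and -0.16) past 1.

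Among TGF-beta and YAP target genes, 3 of 19 were past 1 and 1 past -1. CYR61 had a difference of 1.77 and ID1 of 1.06, whereas TGFBR2, the type II receptor, had ratios of -0.39 and 1.01. Of 23 epithelial-mesenchymal genes, MMP1, MMP10 (-0.61 and 0.53) and FN1 (-0.60 and 0.53) were past -1 and 0 past 1. Of 20 collagen and matrix genes, COL5A2 was past -1 (0.14 and 1.27). Of 27 secretory pathway and p24 genes, TMED2 and SEC24A, a COPII coat protein (-1.46 and -0.12), were past -1, and the COPI subunit ARCN1 (0.23 and -1.18) and TMED5 (0.71 and -0.33) past 1, which is 7.41% each way against 4.92% and 5.13% of all genes. The median of this list was 0.25 (0.40 with median centring), and 19 of the 27 were above 0. A second probe of ARCN1 had a difference of 1.81. The 2 further probes of SEC24A ranged from -0.49 to 1.62.

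In the remaining lists, DUSP6, SPRY4 and AREG, feedback genes and a ligand of the EGFR and MAPK pathway, were past -1 among 23 immediate early and feedback genes, with differences of -1.19, -1.17 and -1.17. FOSB was past 1 there, at 2.48, but its mock channels differed by -1.59. Of 17 let-7 target genes, PLAGL2 (1.02 and -0.70) and E2F5 (-0.18 and -1.48) were past 1, and ACVR1C past -1 with mock channels that differed by 1.30. AGO4, an Argonaute protein, was the 1 gene past -1 of 16 in the small RNA pathway (-0.38 and 0.86). Among 13 metallothionein and zinc genes and 17 histone genes, 0 were past 1 or -1. Of 10 cupin genes and pirin partners, PIR alone was past -1.

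Some genes were detected in the Cy5 channel of 1 array alone, so that the level of the transfected (Cy5) channel has only an approximate bound. It was set against the lowest signal well above background or the dim probe's own where that was higher. This bound is on the Cy5 level after centring and is not the difference of the ratios. By Cy5 level, the long noncoding RNA FLJ43879 (now LINC01940) was at least 9.51-fold higher with si-PIR-2 and LOC101060542 (now LINC01910) at least 3.97-fold. PTGES, the prostaglandin E synthase, was at least 3.32-fold higher, SCN3B at least 3.27-fold and DEPDC1-AS1 at least 2.82-fold. PCDH20, a protocadherin, was at least 4.87-fold lower with si-PIR-2, SAMD13 at least 4.81-fold, the unnamed probe A_21_P0014790 at least 4.77-fold, FAM198B (now GASK1B) at least 4.07-fold and FMO4 at least 3.86-fold. The difference of the ratios, which rests on mock channels that also differed, was smaller than this bound for FLJ43879 (9.48-fold), PTGES (2.80-fold), SCN3B (3.10-fold), PCDH20 (4.36-fold) and FAM198B (3.67-fold). The transfected intensities of these 10 probes on the brighter array were between 30.8 and 61.9, close to background. Folds at such levels depend on the background correction. The difference of KRT37, with transfected intensities of 60.6 and 24.8, went from 2.69 to 0.58 with an offset of 50 and loess. The bounds are not given with that correction and are uncertain.

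The labelled cell type was checked by its markers. KRT18, KRT19, VIM, CD44 and HOXB13, an epithelial, mesenchymal and prostate set known from PC3 cells, had transfected intensities between 4898 and 39193, and their differences lay between -0.77 and 0.86. The androgen-regulated KLK3 and KLK2 were not well above background in mock cells on either array. Of 16 genes in the PC3 and prostate list, FOLH1 alone was past a threshold, at -2.38, with transfected intensities of 21.4 and 29.3. Among the lists for neuroendocrine cells, blood cells, and fibroblasts and endothelium, 1 of 5, 3 of 6 and 6 of 8 markers were measured, and 0 were past 1 or -1. HBB, CHGA, SYP and DCN, markers of erythroid, neuroendocrine and fibroblast identity, were below the detection limit in all 4 channels. Other members of these lists were detected in all 4 channels. On the si-PIR-2 and si-PIR-3 arrays, ENO2 had mock intensities of 387.2 and 362.3, and COL1A1 had transfected intensities of 572.4 and 315.9. PTPRC, CD3E, CD14, PDGFRB, PECAM1, CDH5 and VWF were dimmer, with transfected intensities of up to 84.3.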

How the data were processed

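The study's scanner files of 8 arrays (Agilent Feature Extraction 11.5.1.1, array design on hg19) were used, with groups from the deposited labels. Per the file headers, the authors deposited spot intensities, background-subtracted and dye-normalized processed signals (intensity), and log10 ratios of Cy5 over Cy3. The deposited value table holds the same ratio on a log10 scale and differed from it by 0 on the log2 scale. Control spots and outlier spots were left out, spots of a probe were averaged, and each ratio was multiplied to log2. A probe was kept if each array had it well above background in 1 channel or both, and the brightest probe stood for its gene. Mock and Cy5 differences were centred on their medians, 0.08 and 0.06. No spot was saturated. With 1 array per siRNA no test was run, and the number of arrays limits the precision. Steps were tested on simulated data. Alternatives used limma 3.58.1 in R 4.3.3; the others used Python 3.11.15 and pandas 2.3.3. Current symbols from the RefSeq table matched 16131 of 22503 genes.

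The genes named were PIR, the 15 most positive and 15 most negative differences among genes detected in all channels, a mock difference within 0.5 and a Cy5 difference of the same sign, at most 4 members past 1 or -1 per list, and 5 bounds each way; CXCL1, PARP9, FDFT1, BAK1, BIRC2 and the genes named from the classes and word sites lie outside this rule and were chosen after their values were seen. The contrast, rules and lists were chosen with earlier results of these data known, and the word search was added after the values were seen. Coordinates are given where the annotation covers all 60 bases of a probe. No sequence from chromosome 8 is printed. Some genes of the lists are not reported here.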

Additional observations from a re-analysis of the deposited data

Results flagged for a closer look

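Among the genes named by rule, 5 were past 1 from mock in opposite directions with the 2 siRNAs: CXCL6 (difference 2.89) and FUT8-AS1 (2.51) were above mock with si-PIR-2 and below it with si-PIR-3, and MPZL3 (-3.20), GDF15 (-2.74) and FZD4 (-2.74) were the reverse. Their mock differences were between -0.11 and 0.14. The difference between siRNAs was not tested, since each had 1 array.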

How the results depend on the processing

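The counts past 1 and past -1, 1154 and 1108, were 224 and 235 with normexp (offset 50) and loess, 446 and 186 with normexp and median centring, 659 and 687 with both channels required above background, 3223 and 2972 without a filter on dim probes, 395 and 402 past 1.5, 2886 and 2887 past a fold of 1.5, and 682 and 700 with a mock difference within 0.5. They stayed within 1.5 times with the Cy5 channel alone, the mean over a gene's probes, any passing probe, and without GGGG probes. The classes lower with si-PIR-2 alone, lower with si-PIR-3 alone, higher with si-PIR-2 alone and higher with si-PIR-3 alone held 137, 87, 45 and 14 genes with loess, 667, 434, 437 and 344 without a filter, and 111, 70, 33 and 8 past 1.5. With median centring the first 3 held 5, 3 and 624 genes; this centring moved the median ratio of the measured genes from 0.03 and 0.04 to 0.37 and 0.27. With the arrays centred on that median, a choice made after seeing the data, 334 and 246 genes were past 1 and -1. The classes, in the order above, then held 45, 25, 230 and 58 genes. Whether the lower or the higher classes were larger thus depended on the scaling. With both channels required, the class higher with si-PIR-3 alone held 53 genes. The cause was not tested.

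The PIR difference of -1.18 was -0.78 with loess and -0.65 with median centring. The 30 other named differences kept their sign in all 180 values under alternatives, of which 172 stayed past 1 or -1, and the exceptions were KRT37, ANKRD34A, ZC3H6 and FAM110C under normexp. The means of the probes with GGGTTA and CCCTAA, less those of all probes, were -0.42 and -0.26 and ranged from -0.50 to -0.30 and from -0.34 to -0.19 under the 6 alternatives tried after seeing the data. Median centring turned the sign of the medians of 8 gene lists, among them the interferon-stimulated genes (0.02). Signal over background limits dim genes, and no paired analysis was possible because each siRNA has 1 array.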
